A study of Bos taurus with 6 samples.

Results

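Polycomb repressive complex 2 (PRC2) was followed through its genes EED, EZH2, SUZ12, RBBP4 and RBBP7 in day 7 bovine blastocysts on the Affymetrix GeneChip Bovine Genome Array. The members were all probe sets whose annotated symbol was one of these 5 genes. This gave 26 of the 24016 probe sets tested and 4 of the 9155 annotated genes: 23 probe sets for EED, 1 each for EZH2, RBBP4 and RBBP7, and 0 for SUZ12, which was not analysed here. The set was selected on the readout: EED was picked by the wide spread of its values between arrays of the same group, so that spread is a description and was not tested. The data bear on whether its partners share that spread.

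The superovulated group (3 arrays) held blastocysts that stayed until day 7 in Simmental heifers given ovarian stimulation. The synchronized group (3 arrays) held blastocysts recovered as 2-cell embryos on day 2 and placed by endoscope in recipients that had been synchronized but not stimulated. All embryos of both groups came from superovulated, artificially inseminated donors (18 heifers, 9 of them flushed on day 2), so the groups differ in the tract after day 2 and also in flushing and transfer. The labels do not give the embryos or animals behind an array, nor whether arrays of 1 group are separate collections, so the p-values measure a spread between arrays that may be technical.

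PRC2 places methyl groups on lysine 27 of histone H3, a mark of silenced genes. EZH2 is the methyltransferase, SUZ12 the scaffold, and EED the subunit that binds the finished mark and stimulates the enzyme. RBBP4 and RBBP7 are closely related histone-binding proteins that also belong to the NuRD and SIN3 deacetylase complexes, and RBBP4 to the CAF-1 chromatin assembly factor and the NURF remodeller. Mouse embryos without EED, EZH2 or SUZ12 die soon after implantation.

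All levels are log2 expression values, so 1 unit is a 2-fold change. Most probe sets lay near background, with array medians between 2.75 and 2.8, and 1406 probe sets with a mean above 4 are called bright here. The number of probe sets above 4 was 1457, 1578 and 1894 on superovulated arrays 1 to 3, against 973, 1850 and 1184 on synchronized arrays 1 to 3. In the platform's GAPDH controls the 3' probe set lay above the 5' one by 6.04, 6.18 and 6.11 on the superovulated arrays, against gaps of 4.57, 5.75 and 5.59 on the synchronized arrays. In the EF1A controls that gap was 0.01, 0.40 and 1.86 on the superovulated arrays, against -0.10, 1.57 and 0.08 on the synchronized arrays, so it was widest on superovulated array 3 and synchronized array 2. In the actin controls, all near background, it lay between -0.09 and 0.30.

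The embryo label was checked against blastocyst markers. KRT18, a trophectoderm keratin, read 7.96, 8.11 and 7.74 on the superovulated arrays, against 3.55, 3.68 and 4.90 on the synchronized arrays. GATA6, a primitive endoderm factor, read 6.94, 7.00 and 6.41 on the superovulated arrays, against 3.95, 5.21 and 4.83 on the synchronized arrays. In whole embryos, fewer cells of a type and less RNA per cell cannot be told apart. Of 17 blastocyst markers 9 had a probe set and 2 had a mean above 4. SOX2 and KRT8 stayed below 2.5 on all 6 arrays, and NANOG, CDX2 and GATA3 had no probe set under those symbols.

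EED was read mainly by the probe set Bt.12409.1.S1_at, the only one of its 23 with a mean above 4. It gave 3.76, 4.87 and 6.66 on superovulated arrays 1 to 3, against 3.44, 8.85 and 5.84 on synchronized arrays 1 to 3. Superovulated array 3 and synchronized array 2 were highest, synchronized array 1 and superovulated array 1 were near background, and the groups overlapped. The values spanned 2.90 units within the superovulated group and 5.41 units within the synchronized group. Means were 5.10 ± 1.46 in superovulated blastocysts and 6.04 ± 2.71 in synchronized ones (SD, n = 3 each). The pooled within-group SD was 2.18, and 17 of the 1406 bright probe sets (1.21%) had one at least as large, EED included.

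RBBP7 (Bt.4908.1.S1_at) showed the same arrangement of arrays. It read 7.18, 7.27 and 8.69 on superovulated arrays 1 to 3, against 5.15, 10.12 and 7.47 on synchronized arrays 1 to 3. Its 6 arrays fell in the same order as those of EED, from synchronized array 1 at the bottom to superovulated array 3 and synchronized array 2 at the top. The synchronized arrays differed by 4.97 units and the superovulated arrays by 1.51, so in RBBP7 the spread lay mostly in the synchronized group. Means were 7.71 ± 0.85 in superovulated and 7.58 ± 2.49 in synchronized blastocysts (SD, n = 3 each), and the pooled SD was 1.86, a value reached by 2.56% of bright probe sets.

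RBBP4 and EZH2 stayed near background on most arrays. RBBP4 (Bt.9383.1.S1_at) read 3.29, 3.31 and 3.93 on superovulated arrays 1 to 3, against 3.32, 4.63 and 3.35 on synchronized arrays 1 to 3. The same pair of arrays stood out as in EED and RBBP7, while the other 4 arrays lay between 3.29 and 3.35. EZH2 (Bt.16094.1.S1_at) read 3.27, 3.44 and 4.14 on superovulated arrays 1 to 3, against 3.12, 3.41 and 3.33 on synchronized arrays 1 to 3. Superovulated array 3 was the only array above 4, and synchronized array 2, the highest for the other 3 genes, read less here than superovulated array 2. Pooled SDs were 0.59 for RBBP4 and 0.34 for EZH2. The values as deposited are compressed near background, so the true size of differences at these levels is uncertain.

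**Figure D1:**
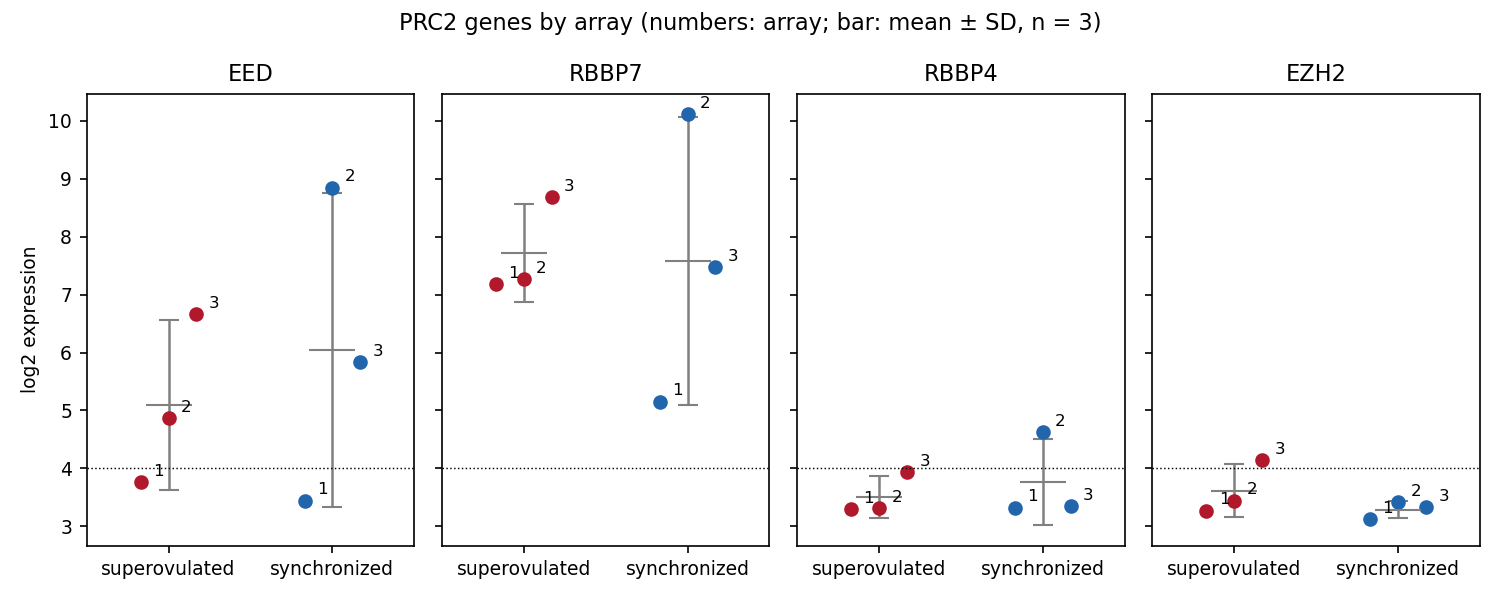
Log2 expression of EED, RBBP7, RBBP4 and EZH2 (1 probe set each, for EED the brightest) on the 3 superovulated and 3 synchronized arrays, with array numbers beside the points, bars for mean ± SD and a dotted line at 4. Superovulated array 3 and synchronized array 2 are the highest of their group in all 4 genes, and the groups overlap in each.

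A pooled SD of at least 1 was reached by 1.59% of all probe sets and by 19.1% of bright ones. It was reached by 2 of the 26 member probe sets, which are the 2 bright ones, EED and RBBP7. An SD of at least 1 within both groups was held by 6.9% of bright probe sets and by EED alone among the members, since RBBP7 had 0.85 in the superovulated group. Leaving out superovulated array 3 and synchronized array 2 together, a choice made after seeing the data, brought the pooled SD to 1.32 for EED, 1.16 for RBBP7, 0.14 for EZH2 and 0.018 for RBBP4. The spread of RBBP4 therefore rested on that pair of arrays, whereas EED and RBBP7 still differed by more than 2-fold between the remaining ones. For RBBP7 that remaining difference lay with synchronized array 1 alone, at 5.15, while the others read 7.18, 7.27 and 7.47. In EZH2 the spread rested on superovulated array 3, without which the SD was 0.14. Without synchronized array 2 alone the SD was 0.30 for RBBP4 and 1.17 for RBBP7.

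**Figure D2:**
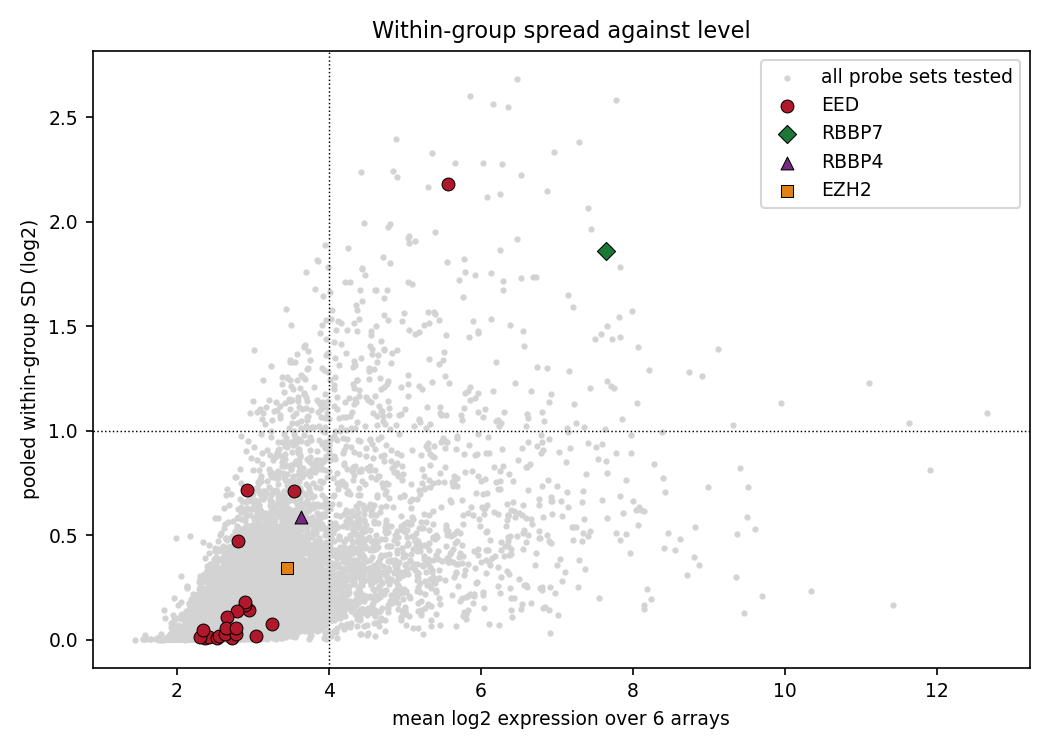
Pooled within-group SD (y axis, log2 units) against the mean log2 expression over 6 arrays (x axis) for all 24016 probe sets in grey, with the 26 member probe sets marked. EED at 2.18 and RBBP7 at 1.86 lie in the upper part of the bright probe sets, and the other 24 member probe sets lie below 1.

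Each partner was compared with EED over the 6 arrays, 3 relations in all. RBBP7 followed EED with Pearson's r = 0.93 (exact permutation test, two-sided, p = 0.00556, adjusted over the 3 partners 0.00833) and Spearman's rho = 1 (exact permutation p = 0.00278, the smallest 6 arrays allow, adjusted 0.00833). RBBP4 gave r = 0.92 (exact permutation p = 0.00556, adjusted 0.00833) and rho = 0.83 (exact permutation p = 0.0583, adjusted 0.0875), so it passed on the values and not on the ranks. EZH2 passed on neither, with r = 0.45 (exact permutation p = 0.346, adjusted 0.346) and rho = 0.71 (exact permutation p = 0.136, adjusted 0.136).

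Without synchronized arrays 1 and 2, the arrays farthest from the EED median, r over the other 4 arrays was 0.84 for RBBP7, 0.79 for RBBP4 and 0.77 for EZH2. With each group centred on its own mean, RBBP7 gave r = 0.98, RBBP4 r = 0.91 and EZH2 r = 0.70, against 0.45 for EZH2 without centring. No p-value is given for these, because values centred by group can be exchanged only within a group. 2 of the scalings tried ended the RBBP4 relation: r = 0.83 after a second quantile normalization (exact permutation test, adjusted p = 0.0792) and r = 0.65 after centring each array on its bright probe sets (adjusted p = 0.246). Centring on bright probe sets gave r = -0.066 for EZH2, and RBBP7 passed under every scaling tried.

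Such relations were common among bright probe sets. An r with EED at least as high as that of RBBP7 was found in 142 of the 1405 other bright probe sets (10.1%), and one at least as high as that of RBBP4 in 12.3%. The order of the 6 arrays seen in EED and RBBP7 was shared by 4.27% of bright probe sets. Superovulated array 3 and synchronized array 2 both lay above the other 4 arrays in 6.89% of all probe sets, 28.4% of bright ones and 85.1% of the 268 bright ones with a pooled SD of at least 1. EED, RBBP7 and RBBP4 had that arrangement and EZH2 did not. Within each group, however, the arrays of EZH2 fell in the order of EED. Its r with EED was 0.98 over the 3 superovulated and 0.95 over the 3 synchronized arrays. An r over 3 arrays carries little weight and was not tested. Superovulated array 3 and synchronized array 2 also had the most probe sets above 4, 1894 and 1850. Synchronized array 1, the lowest for EED and RBBP7, had the fewest, 973. The order was not the same throughout: synchronized array 3 had the second fewest, 1184, but read higher in EED and RBBP7 than superovulated arrays 1 and 2, with 1457 and 1578. The EF1A gap between the 3' and 5' control probe sets was also widest on the pair, at 1.86 and 1.57. The part of these values in the result was not tested.

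The other 22 EED probe sets did not carry the pattern at a similar size. EED had more probe sets than any other symbol but 1, which had 24, against a median of 1 per symbol. Of the 22, 20 stayed at or below 4 on all 6 arrays, with values between 2.28 and 3.72, and 19 had a pooled SD under 0.2. Bt.28799.1.S1_at read 3.26, 3.08 and 3.46 on the superovulated arrays, against 3.13, 4.94 and 3.36 on the synchronized arrays. Here synchronized array 2 alone stood above background. Bt.13842.1.S1_at read 2.50, 2.53 and 4.05 on the superovulated arrays, against 2.51, 3.39 and 2.57 on the synchronized arrays, so superovulated array 3 and synchronized array 2 were again the highest of each group.

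Below these, Bt.9176.1.A1_at reached 3.72 on superovulated array 3, with 2.50 and 2.76 on superovulated arrays 1 and 2 and 2.51, 2.84 and 2.50 on the synchronized arrays. In 7 of the 22 the highest array was superovulated array 3 or synchronized array 2. The share over all probe sets was not counted, so these 7 do not show that the pattern is shared. Which transcripts these 23 probe sets match was not analysed here, as their sequences were not at hand. The EED pattern described here is therefore that of 1 probe set with the symbol EED.

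**Figure D3:**
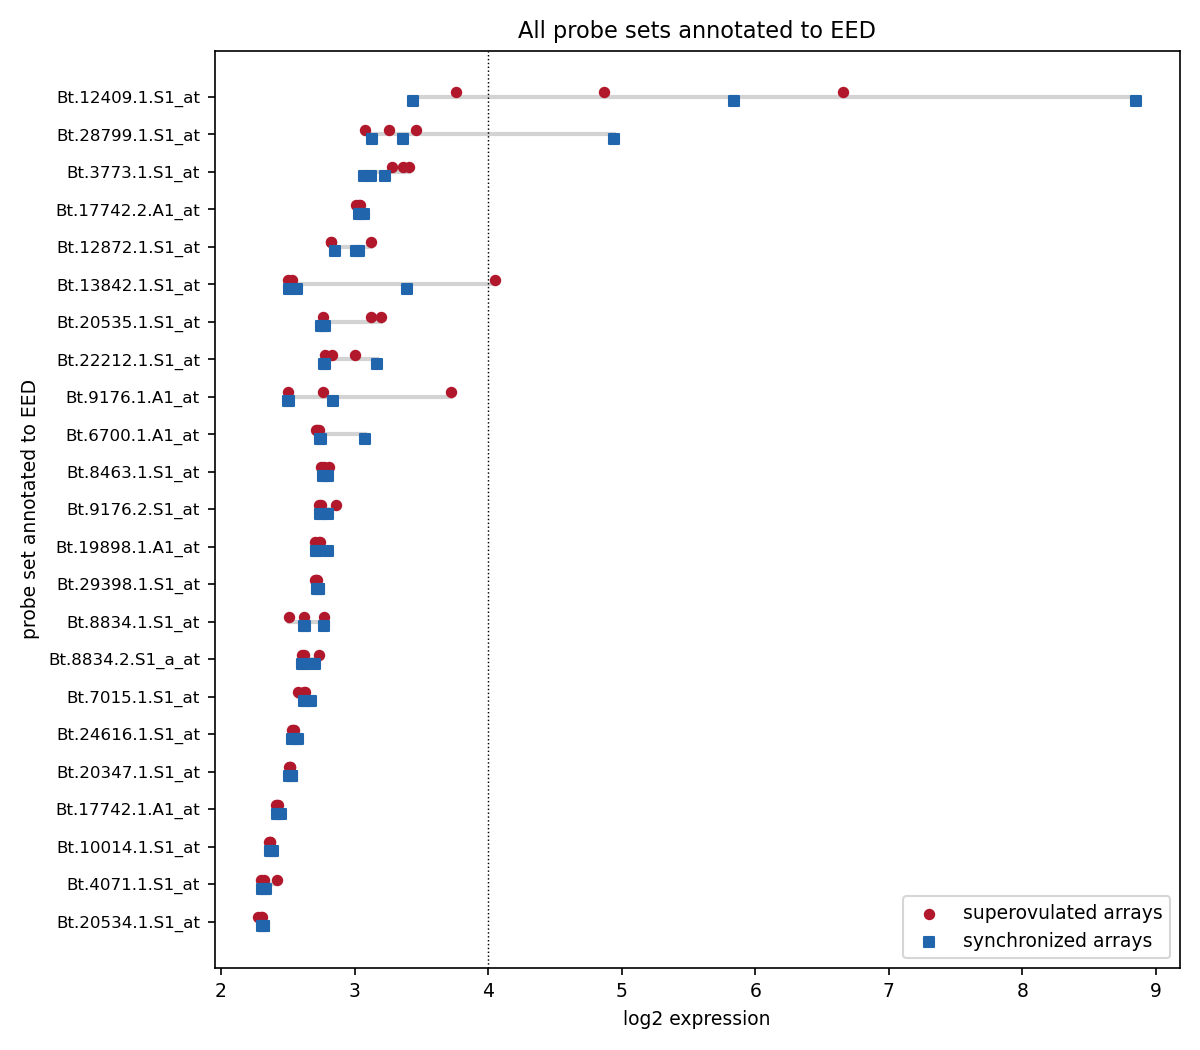
Log2 expression on each array (x axis) for the 23 probe sets annotated to EED (y axis, sorted by mean), superovulated arrays as red circles and synchronized arrays as blue squares, with a dotted line at 4. Only the top probe set spreads from 3.44 to 8.85, and 20 of the 23 stay at or below 4 throughout.

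The groups were compared with limma over all 24016 probe sets, where 0.716% passed an adjusted p of 0.05 (172, of which 167 were higher in the superovulated group). None of the 26 member probe sets passed in limma, and 1 had an unadjusted p under 0.05. The difference, superovulated minus synchronized, was -0.95 for EED (95% interval -5.06 to 3.17, adjusted p = 0.741), 0.13 for RBBP7 (-3.38 to 3.64, adjusted p = 0.953), -0.26 for RBBP4 (-1.37 to 0.85, adjusted p = 0.741) and 0.33 for EZH2 (-0.32 to 0.98, adjusted p = 0.636). The intervals for EED and RBBP7 are wide enough to hold a large change in either direction. The EED test has the spread for which the gene was picked in its error term.

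In 2 of the 26 member probe sets the groups did not overlap, against 13.3% of all probe sets. They were Bt.3773.1.S1_at of EED, with 3.41, 3.28 and 3.36 on the superovulated arrays against 3.07, 3.12 and 3.23 on the synchronized arrays (unadjusted p = 0.0139, adjusted p = 0.409 in limma), and Bt.6700.1.A1_at of EED, with 2.73, 2.72 and 2.71 against 2.74, 3.08 and 2.75. Both lay near background.

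The directions of the small differences moved with the arrays and the scaling. Without synchronized array 2 the difference was 0.46 for EED, 0.18 for RBBP4 and 1.40 for RBBP7, and without synchronized array 1 it was -1.08 for RBBP7. Centring each array on its bright probe sets, which moved the median difference of all probe sets to -0.65 from -0.02, gave -1.57 for EED with an adjusted p of 0.00112 by limma. In that fit limma's prior replaced each probe set's own variance, so EED was tested with an SD of 0.44 although its own SD was 1.81; the call does not reflect the spread between the EED values. Under the same scaling the difference was -0.49 for RBBP7, -0.88 for RBBP4 and -0.29 for EZH2, and none of these passed. A further EED probe set passed there, Bt.28799.1.S1_at (-1.17, adjusted p = 0.0438 by limma), whose difference was -0.54 before that centring.

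Genes that act beside PRC2, or share RBBP4 and RBBP7 with it, were read from 7 lists: PRC2 accessory subunits with EZH1, PRC1, the enzymes that remove the Polycomb marks, NuRD, SIN3, a list of CAF-1, HAT1, NURF and MuvB, and the trithorax and MLL complexes that oppose Polycomb. Of 96 genes 52 had a probe set, each taken at its brightest. In limma 0 of the 52 passed, against 0.716% of all probe sets, with 4 at an unadjusted p under 0.05 and a lowest adjusted p of 0.385. The groups did not overlap in 11 (21.2%), against 13.3% of all probe sets. Of the 11, 3 were higher and 8 lower in the superovulated group, against 5.42% higher and 7.89% lower over all probe sets. A mean at or below 4 was held by 10 of the 11. The median difference of the 52 was -0.02, the same as over all probe sets. Their median pooled SD was 0.12, against 0.07 over all probe sets.

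Outside the PRC2 core, the measured genes of the Polycomb machinery had low values, as RBBP4 and EZH2 did. Without detection calls it cannot be said which of them hold signal. None of the 4 measured genes of the PRC2 accessory list had a mean above 4 at its brightest probe set, nor had any of the 15 measured PRC1 genes or the 3 genes for removal of the marks. JARID2 and MTF2 of PRC2 and BMI1 and CBX2 of PRC1 had no probe set under those symbols. The most even bright gene of the 5 in these lists was CHD4, the NuRD remodelling ATPase, with 5.81, 5.87 and 6.06 on the superovulated arrays, against 5.61, 5.64 and 5.82 on the synchronized arrays. ASH1L, a trithorax histone methyltransferase, was also even, with 5.34, 5.34 and 5.61 on the superovulated arrays, against 5.73, 5.28 and 5.39 on the synchronized arrays.

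SMARCA1, the ATPase of NURF, was the 1 gene of the 52 with a pooled SD of at least 1. It read 2.60, 3.10 and 8.24 on the superovulated arrays, against 5.13, 9.03 and 7.04 on the synchronized arrays. Superovulated array 3 and synchronized array 2 were again on top, but superovulated arrays 1 and 2 were at background (pooled SD 2.60, difference -2.42, adjusted p = 0.636 in limma). SMARCA5, the related ATPase of other ISWI remodellers, read 6.20, 6.60 and 6.24 on the superovulated arrays, against 6.30, 5.18 and 5.90 on the synchronized arrays, so synchronized array 2 was its lowest. SAP130, a SIN3 subunit, read 6.22, 6.50 and 6.57 on the superovulated arrays, against 2.95, 5.37 and 4.54 on the synchronized arrays. The SAP130 groups did not overlap, and the difference of 2.14 did not pass (adjusted p = 0.524 in limma).

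**Figure D4:**
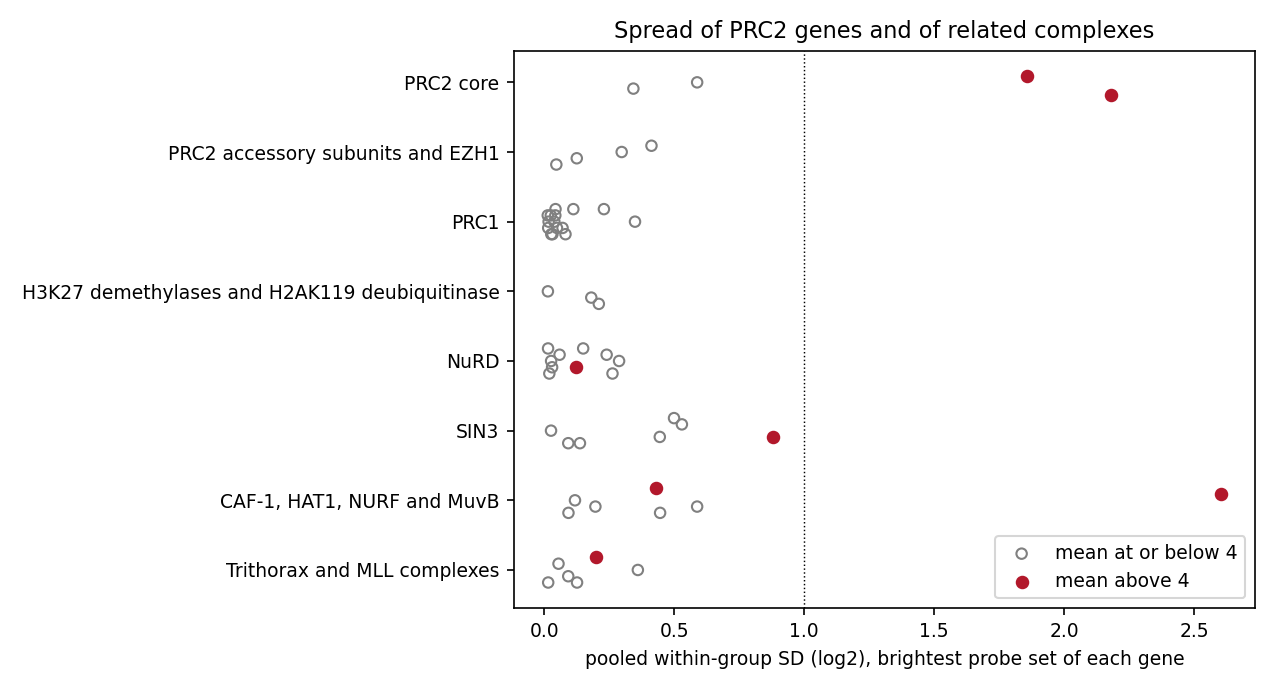
Pooled within-group SD (x axis, log2 units) of each measured gene at its brightest probe set, by list (y axis), with filled points for genes whose mean is above 4 and a dotted line at 1. EED and RBBP7 of the PRC2 core and SMARCA1 of the CAF-1, HAT1, NURF and MuvB list are the 3 genes beyond 1.

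The genes whose 6 values were most like those of EED were taken from 184 bright probe sets with 1 symbol and a pooled SD of at least 1, by Pearson's r over the 6 arrays, which share their library and brightness differences. The 8 highest were GRPEL1, TM9SF2, NASP, SARAF, REXO2, MORF4L1, ZP2 and CHP1, with r between 0.98 and 0.99. GRPEL1, an exchange factor of the mitochondrial import chaperone, read 5.81, 7.24 and 8.51 on the superovulated arrays, against 6.02, 10.57 and 7.95 on the synchronized arrays. NASP, a chaperone of histones H3 and H4, read 6.74, 7.04 and 8.63 on the superovulated arrays, against 6.28, 9.80 and 7.86 on the synchronized arrays. Second probe sets of NASP (2.86 to 2.96) and TM9SF2 (3.14 to 3.25) stayed near background on all 6 arrays. MORF4L1, a chromodomain protein of histone acetylation and deacetylation complexes, read 3.73, 3.99 and 5.92 on the superovulated arrays, against 3.57, 7.29 and 5.45 on the synchronized arrays. RBBP7 ranked 72 in this ordering, 96 of the 184 had an r above 0.9 and 183 had one above 0.

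Of 16 oocyte genes 8 had a probe set, and in 3 of the 8 superovulated array 3 and synchronized array 2 both lay above the other 4 arrays. The share was 6.89% of all probe sets, 28.4% of bright ones and 85.1% of bright ones with a pooled SD of at least 1. KPNA7 and ZP2 belong to the last class, so the arrangement does not set them apart. ZP2, a protein of the zona pellucida around the egg, read 3.31, 3.44 and 4.83 on the superovulated arrays, against 2.78, 6.14 and 3.94 on the synchronized arrays, in the order of EED. KPNA7, a nuclear import factor of the oocyte, read 5.94, 5.98 and 7.78 on the superovulated arrays, against 4.04, 9.02 and 6.11 on the synchronized arrays, in that order too. ZP4, a further zona protein, read 2.68, 2.67 and 4.15 on the superovulated arrays, against 2.71, 5.35 and 2.76 on the synchronized arrays. These are the 3 with that arrangement, and ZP2 and ZP4 exceeded 4 on those arrays alone. The list mean was 3.04, 3.09 and 3.69 on the superovulated arrays, against 2.85, 4.45 and 3.19 on the synchronized arrays. ZP3 (r = 0.36 with EED over 6 arrays), BMP15 (r = 0.37), GDF9 (r = 0.66), NLRP5 (r = 0.77) and MOS (r = 0.80) did not have that pair on top. Each of them stayed below 4 and was highest on synchronized array 2. In NLRP5 and MOS superovulated array 3 tied with synchronized array 1, at 2.79 and 2.29. The part of oocyte transcripts in the EED and RBBP7 values was not tested.

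All 13 cumulus and granulosa genes of the list were measured, and 5 of the 13 had the same pair of arrays above the other 4. The share was 6.89% of all probe sets, 28.4% of bright ones and 85.1% of bright ones with a pooled SD of at least 1. TNFAIP6 and INHA belong to the last class. TNFAIP6, a protein of the cumulus matrix, read 3.05, 2.99 and 7.38 on the superovulated arrays, against 4.25, 8.47 and 5.96 on the synchronized arrays. A second TNFAIP6 probe set stayed between 2.39 and 2.43 on all 6 arrays. PTX3, of the same matrix, read 2.99, 2.94 and 3.87 on the superovulated arrays, against 3.01, 5.21 and 3.52 on the synchronized arrays. INHA, the inhibin alpha subunit, read 4.79, 4.85 and 6.64 on the superovulated arrays, against 4.85, 6.79 and 4.87 on the synchronized arrays. INHBA and FST had the arrangement too. HAS2, the enzyme that makes the hyaluronan of the cumulus matrix, went the other way, with 3.78, 4.05 and 3.65 on the superovulated arrays, against 3.66, 3.44 and 3.58 on the synchronized arrays (r = -0.60 with EED). LHCGR (r = -0.53), FSHR (r = -0.42), CYP19A1 (r = -0.29), COL1A2 (r = -0.27) and CYP11A1 (r = -0.21) also had an r below 0. COL1A2 was higher in the superovulated group (difference 0.66, adjusted p = 0.0316 in limma). The list mean was 3.12, 3.06 and 3.70 on the superovulated arrays, against 3.24, 3.98 and 3.36 on the synchronized arrays. FSHR and AMH of the granulosa stayed below 3 on every array, and the part of these cells in the result was not tested.

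Over the 6 arrays the r with EED was -0.26 for KRT18, -0.04 for GATA6 and -0.19 for DAB2, the 3 blastocyst markers above 4 on any array. All 3 were higher on every superovulated array than on any synchronized one, a split that EED lacks and that weighs on r. Superovulated array 3 was the lowest of its group in each, in DAB2 at 4.85 against 4.87 and 5.02. In the synchronized group array 1 was the lowest in each, as in EED. GATA6 also had the EED order there, with 3.95, 5.21 and 4.83. The blastocyst list mean was 4.06, 4.15 and 4.02 on the superovulated arrays, against 2.80, 2.98 and 3.13 on the synchronized arrays. Of 9 measured oviduct and uterus genes 0 had superovulated array 3 and synchronized array 2 above the other 4 arrays, against 6.89% of all probe sets. At that share, 9 genes are too few to show a lack of the arrangement. In this list C3 (difference 2.56, adjusted p = 0.0373 in limma) and EPCAM (difference 2.38, adjusted p = 0.0576 in limma) were higher on all 3 superovulated arrays than on any synchronized one. C3 was read by the brightest of its 3 probe sets, the only 1 of the list's 13 probe sets that passed in limma. The source of these transcripts was not tested. Of 7 measured blood and immune genes 0 exceeded 4 on any array.

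**Figure D5:**
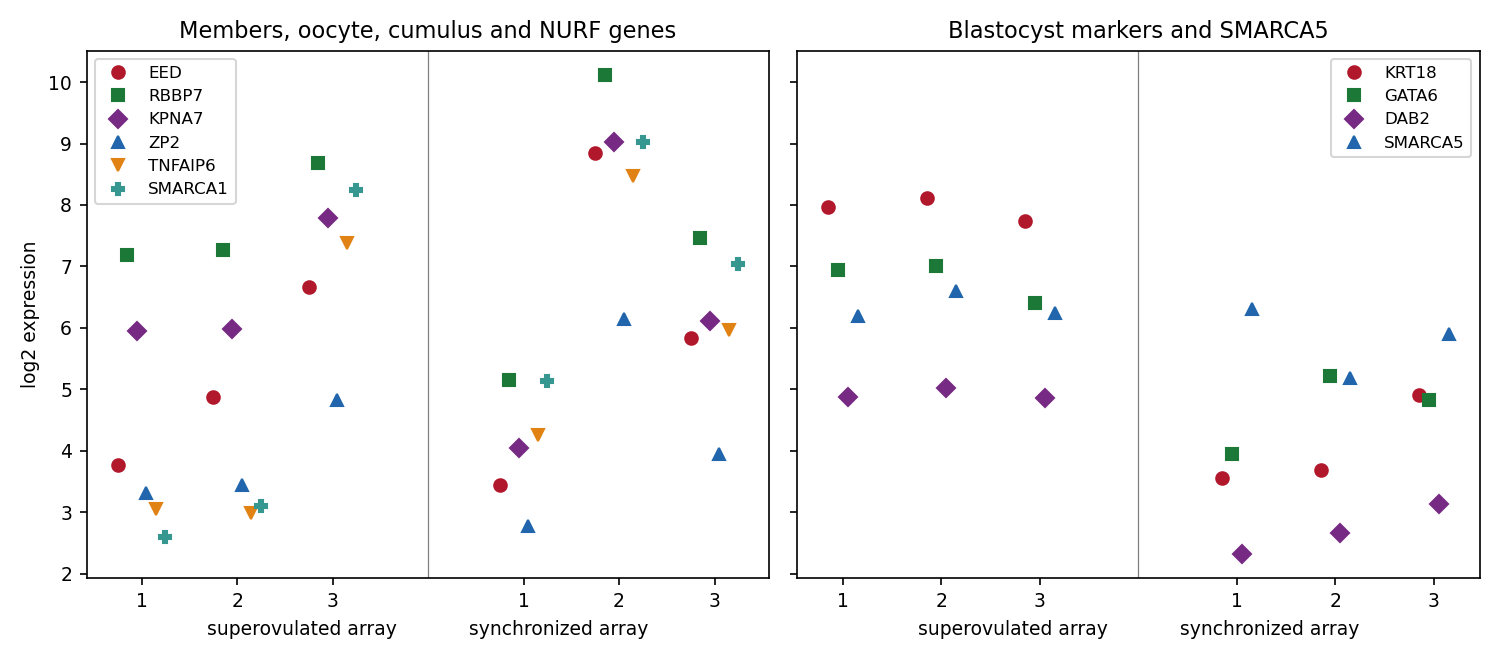
Log2 expression (y axis) on superovulated arrays 1 to 3 and synchronized arrays 1 to 3 (x axis) for EED and RBBP7 with the oocyte genes KPNA7 and ZP2, the cumulus gene TNFAIP6 and the NURF gene SMARCA1 (left), and for the blastocyst markers KRT18, GATA6 and DAB2 with SMARCA5 (right). On the left each gene peaks on superovulated array 3 and synchronized array 2 within its group; on the right KRT18 reads 7.96, 8.11 and 7.74 on the superovulated arrays and at most 4.90 on the synchronized ones.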

How the data were processed

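The authors deposited 1 log2 expression value per probe set and array, made with GCRMA per the submitters' processing notes; its version and whether the arrays were normalized together are not given in the sources used here. Per the labels' protocols, RNA was amplified and biotin entered in the second in vitro transcription. The table held 24128 probe sets, and 112 control probe sets were set aside. Symbols came from GEO's platform annotation: 13292 probe sets had 1, 86 several and 10638 none, and 13263 matched the RefSeq table by gene identifier, with 0 symbols changed.

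The group difference was fitted by limma 3.58.1 (R 4.3.3; group as the only term, two-sided, superovulated minus synchronized, Benjamini-Hochberg over 24016 probe sets), tested on simulated data. The pooled within-group SD is the root mean square of the SDs of both groups. Correlations were tested by all 720 permutations. In each list of related complexes, called members and up to 4 of the brightest with a mean above 4 were to be named. ZP4, PTX3, INHA, KPNA7, TNFAIP6, FSHR, AMH, HAS2, LHCGR, CYP19A1, COL1A2, C3, EPCAM, PSMA4 and the markers at background were chosen after their values were seen. The members and lists were chosen with earlier results of these data known. Alternatives were other scalings, filters, a variance trend, a replicate block and omitted arrays. The number of arrays limits the precision, and no detection calls were used.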

Additional observations from a re-analysis of the deposited data

How the results depend on the processing

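The count of probe sets past the limma threshold, 172, was 28 after a second quantile normalization, 647 with arrays centred on bright probe sets, 441 among bright probe sets alone, 50 with a variance trend, between 26 and 137 with 1 array left out, and 1 without superovulated array 3 and synchronized array 2. With a replicate block it was 0. The labels do not say whether the replicate numbers pair the arrays. Deviations from the group means correlated at 0.60 for the arrays numbered 1, -0.54 for those numbered 2 and -0.44 for those numbered 3. The highest value, 0.74, was between superovulated array 3 and synchronized array 2. Deviations sum to 0 within a group, so these values cannot settle the pairing. The count of 0 therefore says nothing of a weaker effect. The block called no member either. None of the member probe sets tested passed under any alternative except 2 of EED with arrays centred on bright probe sets, Bt.12409.1.S1_at (-1.57, adjusted p = 0.00112 by limma) and Bt.28799.1.S1_at (-1.17, adjusted p = 0.0438), where the prior replaced the variances. Differences turned round were -0.29 for EZH2 and -0.49 for RBBP7 under that centring, and -0.74 for RBBP7 after a second quantile normalization. With 1 array left out they ran from -2.25 to 0.46 for EED, 0.07 to 0.50 for EZH2, -0.48 to 0.18 for RBBP4 and -1.08 to 1.40 for RBBP7. The cause of these shifts was not tested.

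The pooled SD with 1 array left out ran from 1.54 to 2.51 for EED, 0.14 to 0.39 for EZH2, 0.30 to 0.66 for RBBP4 and 1.17 to 2.14 for RBBP7, and without superovulated array 3 and synchronized array 2 it was 1.32, 0.14, 0.018 and 1.16 in that order. RBBP4 had 0.28 with arrays centred on bright probe sets. The share of bright probe sets with an SD of at least 1, 19.1%, was 9.74% under that centring, 27.4% for a mean above 6 and 7.18% to 24.04% with 1 array left out. The correlation with EED without 1 array ran from 0.28 to 0.83 for EZH2, 0.75 to 0.97 for RBBP4 and 0.85 to 0.98 for RBBP7. RBBP4 lost its call after a second quantile normalization (0.83) and with centring on bright probe sets (0.65), and EZH2 turned to -0.066 with that centring. Among the lists, the median difference of the genes that remove the Polycomb marks turned from 0.19 to -0.013 over all their probe sets and to -0.43 with centring on bright probe sets, which took that of the blastocyst markers from 0.43 to -0.19.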

Other observations

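Among the 184 bright and variable probe sets with 1 symbol, the 8 genes with the lowest r with EED were all split by group without overlap. Of these, 5 were higher and 3 lower on the superovulated arrays, against 5.42% higher and 7.89% lower over all probe sets. The groups overlap in EED, so a choice by low r favours genes split by group, and the count is not a result about them. PSMA4, an alpha subunit of the proteasome, was 1 of the 5, with 7.24, 6.95 and 6.83 on the superovulated arrays, against 2.72, 5.33 and 5.33 on the synchronized arrays (difference 2.55, adjusted p = 0.547 in limma). In all 5, synchronized array 1 was the lowest. FUT1, a fucosyltransferase of cell-surface glycans, had the lowest r with EED, -0.02 over 6 arrays, and was the only one of the 184 below 0. It read 3.07, 3.15 and 2.99 on the superovulated arrays, against 6.56, 4.89 and 7.79 on the synchronized arrays (difference -3.34, adjusted p = 0.272 in limma). CHMP1B, an ESCRT subunit of membrane scission, read 4.13, 3.11 and 4.69 on the superovulated arrays, against 7.94, 6.12 and 8.52 on the synchronized arrays (difference -3.55, adjusted p = 0.246 in limma). In FUT1 and CHMP1B synchronized array 2, the brightest for EED, was the lowest synchronized array. None of the 8 differences passed in limma, and the genes were chosen by their pattern.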
